A study of Mus musculus with 10 samples.

Results

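The 9 genes described here were chosen by symbol, with earlier results of these data known, as genes of the primary cilium and of polycystic disease. They were Kif3a, Ift88, Arl13b, Pkhd1, Pkd1, Pkd2, Bicc1, Glis3 and Dcdc2a. Of the 9, 7 were represented on the arrays by a transcript cluster (the array's unit for a gene, a set of probes along its transcript) assigned to that gene alone, among 19938 genes tested. Arl13b and Pkd2 had no such cluster and were not analysed here. The levels come from total RNA of whole mouse pancreas, 5 control and 5 DKO samples of mixed strain background, hybridised to Affymetrix Mouse Gene 1.0 ST arrays. The labels give the control group only by that word, so the alleles it carried are not known here. The DKO group has the genotype PDX1Cre, Mst1-/-, Mst2L/L: Mst1 is lost through a germline null allele in every cell, and Mst2 through a floxed allele only where Cre was driven by the Pdx1 promoter, which acts in pancreatic progenitors. The labels give no ages or sexes and do not say whether each array had its own animal. P-values here therefore reflect only how far these samples spread, part of which may be technical. In whole tissue, fewer cells of a type and less RNA per cell cannot be told apart.

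The primary cilium is a single, non-motile projection of the cell surface that most epithelial cells carry, and in the pancreas it is found on duct and islet cells while acinar cells, the enzyme-secreting bulk of the tissue, largely lack it. It is built by intraflagellar transport (IFT), in which the kinesin-II motor carries IFT particles outward along microtubules and dynein-2 returns them. Loss of cilium proteins, or of the cystic disease proteins that reside in it, causes cysts in kidney, liver and pancreas, and duct dilation is a known outcome of deleting Kif3a, Ift88 or Pkd2 in the mouse. The hippo kinases MST1 and MST2 restrain the coactivators YAP and TAZ.

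Correlations between arrays, across genes, were 0.976 to 0.995. Array medians lay at 7.12 to 7.15 (log2 intensity) over all clusters and at 7.55 to 7.63 over the genes tested. The cluster for Stk4, which codes for MST1, measured 5.15 in control and 5.13 in DKO, inside the 3.99 to 5.75 that sex-linked genes read where they are off, and so gave no check of the labels, and the MST2 gene, Stk3, was not analysed here. Xist, a sex-linked gene that is on in females, was high on 3 control and 2 DKO arrays, so both groups mixed the sexes. Acinar markers were bright on all arrays (mean of 10 genes 11.71 to 12.40). In DKO replicate 1 hepatocyte markers stood apart (mean log2 level of 11 genes 11.08, against 6.54 to 7.41 on the other arrays). In all, 487 of 19938 genes (2.44%) passed a Benjamini-Hochberg adjusted p of 0.05 in limma, 414 higher (2.08%) and 73 lower (0.366%) in DKO. After subtraction of each array's median over the genes tested, the split was 271 higher and 103 lower. That setting moved the median change of all genes from -0.006 to -0.047.

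Promoter sequence was available in RefSeq (build GRCm38.p6) for 8 of the 9 members, all but Bicc1. The windows, 250 bases before to 50 after the annotated start, were searched on both strands for 3 short motifs: GGAATG, bound by the TEAD partners of YAP and TAZ; GTTGCC, an arm of the X-box bound by the RFX factors that drive cilium genes; and GTTAAT, an arm of the site of the duct and kidney factor HNF1. The X-box arm occurred in 3 of the 8 promoters (Kif3a, Ift88 and Arl13b), against 12.5% of all 32851 promoters in the table. The HNF1 arm occurred in 2 (Pkhd1 and Dcdc2a), against 7.10%, and the TEAD motif in 1 (Pkd2), against 14.7%. Such matches describe the letters in the window and show no binding. The 250 bases before the start are shown for the 2 members that passed the test, because the matched motif differs between them. Capitals mark the X-box arm in Kif3a (chr11:53567119-53567368, plus strand), whose first base lies 98 bases before the start, and the HNF1 arm in Pkhd1 (chr1:20618058-20618307, minus strand), whose first base lies 79 bases before it.
Kif3a: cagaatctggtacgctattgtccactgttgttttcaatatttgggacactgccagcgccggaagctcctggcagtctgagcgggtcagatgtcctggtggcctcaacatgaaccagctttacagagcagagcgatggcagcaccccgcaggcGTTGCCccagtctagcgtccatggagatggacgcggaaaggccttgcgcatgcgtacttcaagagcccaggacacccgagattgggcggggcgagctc
Pkhd1: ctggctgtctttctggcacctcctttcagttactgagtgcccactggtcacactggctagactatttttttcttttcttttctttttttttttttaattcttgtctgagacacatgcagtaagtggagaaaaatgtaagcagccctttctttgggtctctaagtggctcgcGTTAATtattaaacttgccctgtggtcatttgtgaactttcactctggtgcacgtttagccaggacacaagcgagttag

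Among the 7 measured members, Kif3a and Pkhd1 rose in DKO, Kif3a 1.87-fold and Pkhd1 1.32-fold. Another 4 (Glis3, Ift88, Bicc1 and Dcdc2a) had higher means in DKO and did not pass, and Pkd1 had the only lower mean. Of the 7, 2 were called higher and none lower, against 2.08% of all genes called higher. At an unadjusted p of 0.05 there were 5, all higher, where 9.18% of all genes were. The median change of the 7 was 0.28 on the log2 scale, and that of all genes was -0.006. The groups did not overlap in 2 members, Kif3a and Glis3, both higher in DKO. Of all genes, 3.52% were higher without overlap, 1.28% lower and 4.80% in either direction. The members were chosen with earlier results of these data known, so shares above those of all genes may follow from that choice.

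**Figure D1:**
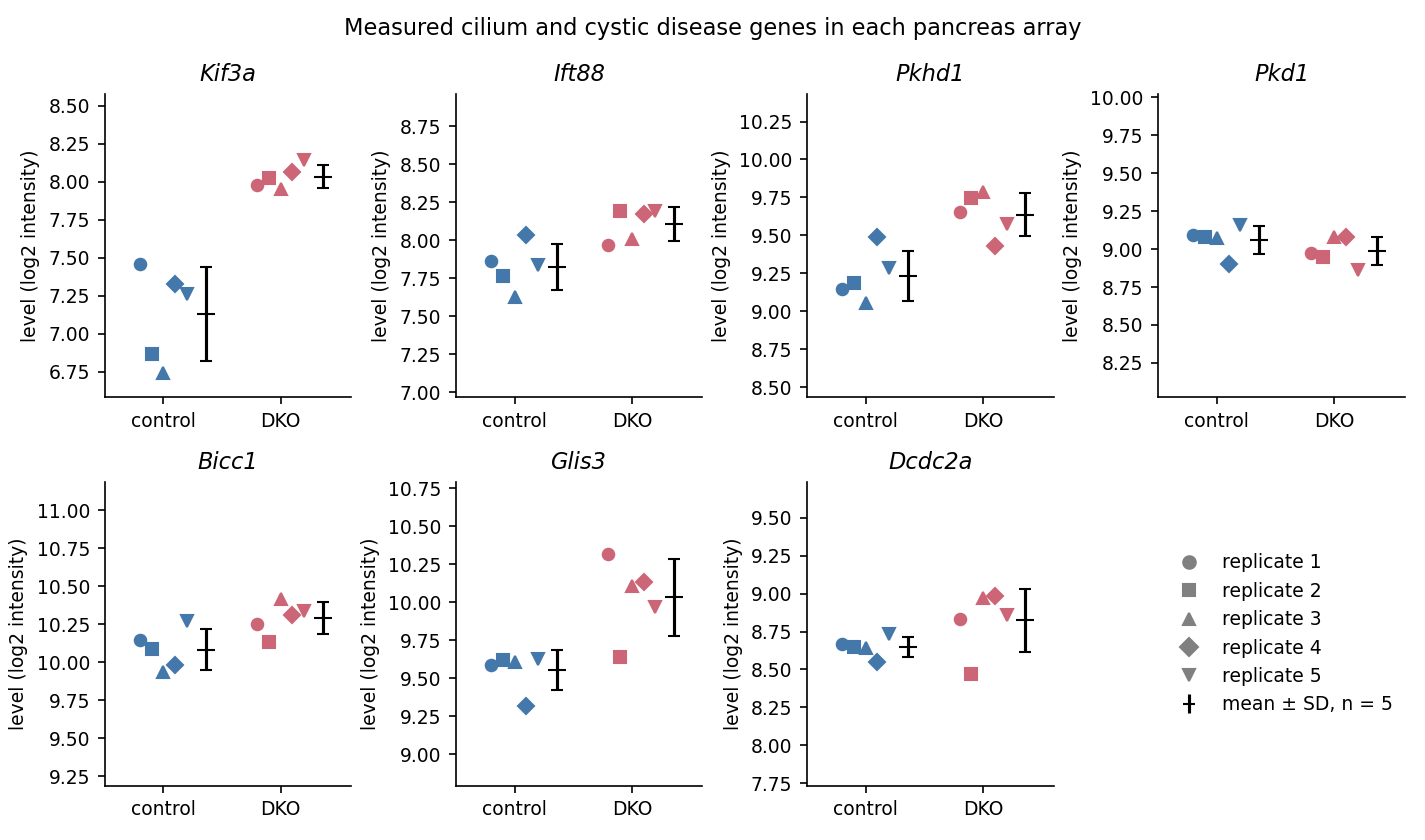
Level (log2 intensity) of each measured member on each array, control in blue and DKO in red, one marker shape per replicate number, with mean ± SD (n = 5) in black. Each panel spans the same number of log2 units. The DKO arrays lie wholly above the control arrays for Kif3a (7.95 to 8.15 against 6.74 to 7.46), while the groups overlap for Pkhd1, Ift88, Pkd1, Bicc1 and Dcdc2a.

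Kif3a (transcript cluster 10376033) codes for a motor subunit of kinesin-II. Its log2 levels were 7.46, 6.87, 6.74, 7.32 and 7.26 on control arrays 1 to 5 and 7.98, 8.03, 7.95, 8.06 and 8.15 on DKO arrays 1 to 5. The lowest DKO array thus lay above the highest control array, and control replicates 2 and 3 were the lowest of all. The mean rose from 7.13 ± 0.31 to 8.03 ± 0.08 (SD, n = 5 each), a log2 change of 0.90 ± 0.13 (SE, limma adjusted p = 0.00414; 95% interval of the fold 1.54 to 2.27). With control replicates 2 and 3 both left out, a choice made after seeing their levels and one that works against the difference, Kif3a was still 0.69 higher (adjusted p = 0.00509). Leaving out any 1 array gave changes of 0.81 to 0.99, each past the test.

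Kinesin-II is a heterotrimer, and Kif3b, its second motor subunit, and Kifap3, its cargo-binding subunit, gave smaller differences than Kif3a. Kif3b was 8.17 ± 0.05 in control and 8.26 ± 0.08 in DKO (SD, n = 5 each; log2 change 0.09, 95% interval -0.02 to 0.21, adjusted p = 0.437). Kifap3 was 7.90 ± 0.17 in control and 8.09 ± 0.14 in DKO (log2 change 0.18, 95% interval -0.02 to 0.38, adjusted p = 0.379). Within arrays, the log2 level of Kif3a minus that of Kif3b was 0.81 ± 0.15 (SE) higher in DKO, and Kif3a minus Kifap3 was 0.72 ± 0.11 higher. These pairs were chosen after their values were seen, so the differences are a description and carry no test.

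Ift88 (cluster 10415608) codes for a core subunit of the IFT-B particle, whose hypomorphic mouse mutant is a classic model of cystic kidney and pancreas. Its log2 levels were 7.86, 7.76, 7.62, 8.04 and 7.84 on control arrays 1 to 5 and 7.97, 8.19, 8.01, 8.17 and 8.20 on DKO arrays 1 to 5. Control replicate 4 lay above the lowest pair of DKO arrays, so the groups overlapped. The difference of 0.28 ± 0.08 (SE, log2 scale) did not pass (adjusted p = 0.107). Kif3a minus Ift88 within arrays, a pair chosen in the same way, was 0.62 ± 0.10 (SE, log2 scale) higher in DKO.

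Pkhd1 (cluster 10353346) codes for fibrocystin, the large receptor-like membrane protein of cilia in duct, bile duct and kidney collecting duct cells that is mutated in recessive polycystic kidney disease. Its log2 levels were 9.15, 9.19, 9.05, 9.49 and 9.28 on control arrays 1 to 5 and 9.65, 9.75, 9.78, 9.43 and 9.57 on DKO arrays 1 to 5. Control replicate 4 exceeded DKO replicate 4, and the other DKO arrays lay above every control array. The mean rose from 9.23 ± 0.17 to 9.64 ± 0.14 (SD, n = 5 each), a log2 change of 0.40 ± 0.09 (SE, limma adjusted p = 0.0462). That call lay close to the threshold. It ended on leaving out any 1 array other than control replicate 4 or DKO replicate 4, 8 of the 10 (highest adjusted p 0.119, without control replicate 3), and with array medians subtracted (0.0751), quantile normalization again (0.0790), the Xist level as a covariate (0.0815), unmoderated variance (0.105) or the replicate number as a block (0.214), while the change itself stayed between 0.33 and 0.47 in all 22 alternatives run.

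Pkd1 (cluster 10442495) codes for polycystin-1, which is mutated in most dominant polycystic kidney disease and forms a ciliary channel complex with polycystin-2, the product of Pkd2. Its log2 levels were 9.09, 9.08, 9.07, 8.90 and 9.16 on control arrays 1 to 5 and 8.97, 8.95, 9.08, 9.08 and 8.86 on DKO arrays 1 to 5. Control replicates 1 and 5 lay above every DKO array and DKO replicate 5 below every control array, and the other arrays lay in the range shared by the groups. The difference was -0.07 ± 0.06 (SE, log2 scale, 95% interval -0.21 to 0.07, adjusted p = 0.617). Pkhd1 minus Pkd1 within arrays was 0.48 ± 0.13 (SE, log2 scale) higher in DKO, again a description of a pair chosen after its values were seen.

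Glis3 (cluster 10466888) codes for a Krüppel-like zinc finger factor found in cilia and nuclei, whose mutation causes neonatal diabetes with cystic kidneys. Its log2 levels were 9.59, 9.62, 9.61, 9.32 and 9.63 on control arrays 1 to 5 and 10.32, 9.64, 10.11, 10.13 and 9.97 on DKO arrays 1 to 5. DKO replicate 2 stood just above the highest control array, and the other 4 DKO arrays lay clearly above it. The mean was 9.55 ± 0.13 in control and 10.03 ± 0.25 in DKO (SD, n = 5 each). The difference of 0.48 ± 0.12 (SE) just missed the threshold (adjusted p = 0.0573; 95% interval of the fold 1.17 to 1.66). It passed in 5 of the 22 alternatives, among them the fit without DKO replicate 2 (change 0.58, adjusted p = 0.00972).

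Bicc1 codes for an RNA-binding protein of the kidney and duct epithelium whose loss causes polycystic disease, and is represented by 2 clusters. The brighter (10369844) read 10.15, 10.09, 9.93, 9.98 and 10.27 on control arrays 1 to 5 and 10.25, 10.13, 10.42, 10.31 and 10.34 on DKO arrays 1 to 5. Control replicates 1 and 5 lay within the DKO range. The difference was 0.21 ± 0.07 (SE, log2 scale, adjusted p = 0.220). The dimmer cluster (10369842) gave 0.26 ± 0.11 (SE, adjusted p = 0.324 when all 21789 clusters were tested), so the clusters gave the same direction and neither passed.

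Dcdc2a (cluster 10404250) codes for a doublecortin-domain protein that binds ciliary microtubules and whose human counterpart is mutated in nephronophthisis and in sclerosing cholangitis of the newborn. Its log2 levels were 8.67, 8.64, 8.64, 8.55 and 8.73 on control arrays 1 to 5 and 8.83, 8.47, 8.97, 8.99 and 8.86 on DKO arrays 1 to 5. DKO replicate 2 was the lowest of all 10 arrays and the other 4 DKO arrays lay above every control array. The difference of 0.18 ± 0.09 (SE) did not pass (adjusted p = 0.401). Without DKO replicate 2 it was 0.26 (adjusted p = 0.0496). Glis3 and Bicc1 also had their lowest DKO level on that array. It was the array highest in fat markers (mean of 5 genes 9.43, against 8.01 to 8.42 over control arrays). Whether fat content bears on these genes was not tested.

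**Figure D2:**
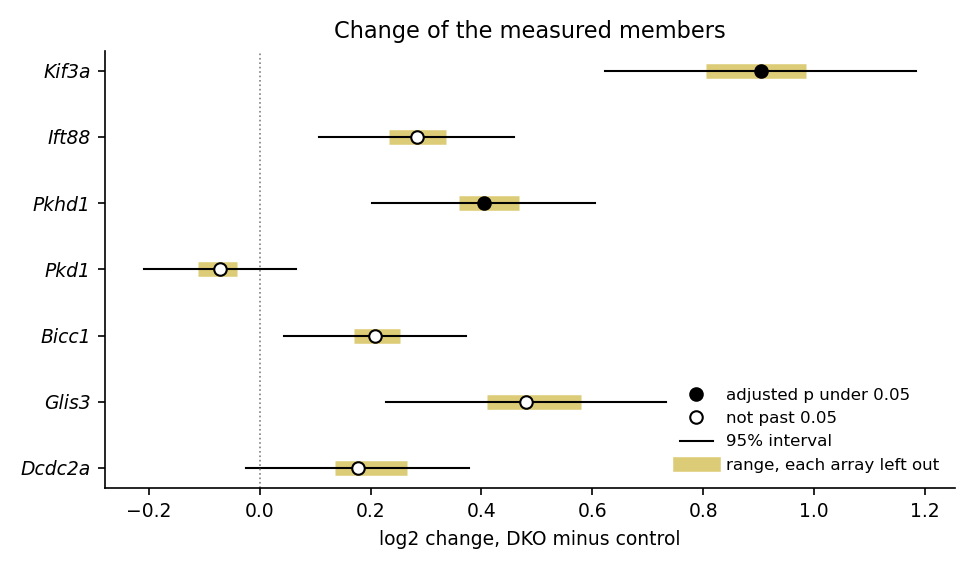
Change of each measured member in log2 units, DKO minus control, with the 95% interval from limma (black line) and the range of the estimate when each array is left out in turn (yellow bar). Kif3a (0.90) and Pkhd1 (0.40) are filled because they passed an adjusted p of 0.05. The intervals of Pkd1 and Dcdc2a include 0.

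The members varied in different ways within the groups. Over the 10 arrays, with each group's mean removed, Ift88 and Kif3a had Pearson's r = 0.74 and Spearman's rho = 0.71 (exact within-group permutation p = 0.0176, 0.180 adjusted over 21 pairs), and r = 0.53 without the 2 arrays farthest from the Ift88 median. Bicc1 and Dcdc2a had r = 0.72 and rho = 0.83 (exact permutation p = 0.00458, adjusted 0.0963), and r = 0.68 without 2 arrays. The largest r was that of Dcdc2a and Glis3, 0.79 with rho = 0.65 (exact permutation p = 0.0435, adjusted 0.229). It was 0.46 without the 2 arrays farthest from the Dcdc2a median. Ift88 and Glis3 ran opposite, with r = -0.67 and rho = -0.61 (exact permutation p = 0.0258, adjusted 0.180), and r = -0.68 without 2 arrays. No pair of the 21 passed adjustment. The genes most like Kif3a among all those tested, by the same centred correlation over the 10 arrays and as a description only, were Daam1 (r = 0.96), a formin-family actin regulator, Wdr35 (r = 0.94), an IFT-A subunit, and Rabl2 (r = 0.94), a GTPase of ciliary transport. Most like Pkhd1 were Olfr239 (r = 0.94), Olfr1537 (r = 0.92) and Sirt4 (r = 0.92). Olfr1537 read 3.86 in control and 3.67 in DKO, below the 3.99 to 5.75 that sex-linked genes read where they are off. Most like Glis3 were Rexo1 (r = 0.97, rho = 0.67), Ptges2 (r = 0.96, rho = 0.84) and Spns1 (r = 0.95, rho = 0.85). Without DKO replicate 2 and control replicate 4, the arrays farthest in Glis3, these had r of 0.82, 0.90 and 0.90.

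The other genes of cilium, cystic disease and Hedgehog signalling came from 11 lists, also chosen with earlier results of these data known. From those lists 140 genes were measured. Of these, 2 rose in DKO, Glis2 and Dnah11, and none fell by limma, a smaller share than the 2.08% of all genes called higher. At an unadjusted p of 0.05 there were 25, of which 24 were higher, where 14.8% of all genes passed and 9.18% were higher. The median change over the 140 was 0.07, against -0.006 over all genes, and 64.3% of them had an estimate above 0, against 47.6% of all genes. Both calls lay close to the threshold, and with array medians subtracted, unmoderated variance, the replicate block or the Xist covariate none of the 140 was called. With control replicates 2 and 3 both left out the median of the 140 was 0.02, and without control replicate 3 alone it was 0.04.

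**Figure D3:**
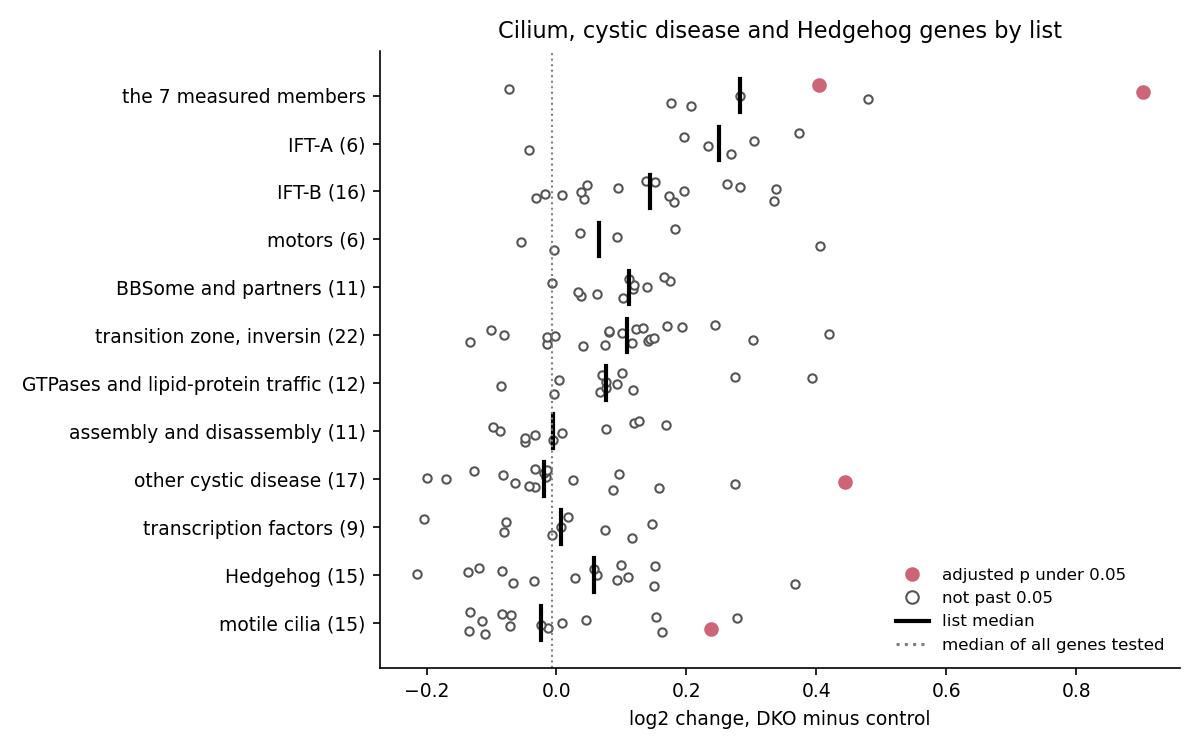
Change of each gene in log2 units, DKO minus control, for the 7 measured members and the 11 lists (measured genes in parentheses), with list medians as black bars and the median of all genes tested as a dotted line. Red points passed an adjusted p of 0.05. The IFT-A median (0.25) lies near that of the members (0.28). The median of the motile cilia list (-0.02), whose genes had low levels in both groups, lies near that of all genes.

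Genes of the IFT-A particle, which moves cargo back to the cell body and brings membrane proteins into the cilium, had a median change of 0.25, and none of 6 passed (4 at an unadjusted p of 0.05, all higher, where 9.18% of all genes were higher). Wdr35 was 7.28 ± 0.21 in control and 7.65 ± 0.11 in DKO (SD, n = 5 each; adjusted p = 0.0841), and Ift122 was 7.65 ± 0.17 and 7.92 ± 0.07 (adjusted p = 0.121). The groups did not overlap in either gene, as in 3.52% of all genes with higher DKO levels. The IFT-B list holds genes of the particle for outward transport and leaves out its member Ift88, described above. Its median change was 0.14, and none of 16 passed (6 at an unadjusted p of 0.05, all higher, against the same 9.18%). The largest of these were Ift74 at 0.34 ± 0.12 (SE, log2 scale, adjusted p = 0.226) and Hspb11, which is Ift25, at 0.33 ± 0.11 (adjusted p = 0.196).

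The mean level of the 22 IFT genes in these lists, without Ift88, was 7.77, 7.57, 7.51, 7.86 and 7.70 on control arrays 1 to 5. On DKO arrays 1 to 5 it was 7.66, 7.90, 7.79, 7.89 and 7.98. Control replicates 2 and 3, lowest in Kif3a, were also lowest here, while control replicate 4 lay above DKO replicates 1 and 3. With control replicates 2 and 3 both left out the median change was 0.14 for IFT-A and 0.05 for IFT-B. The IFT-B median was also lower without control replicate 2 (0.08), DKO replicate 2 (0.09) or DKO replicate 5 (0.07), and without the dimmest 50% of genes that of IFT-B was 0.04, as it was for all genes kept. What sets those 2 arrays apart was not tested.

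**Figure D4:**
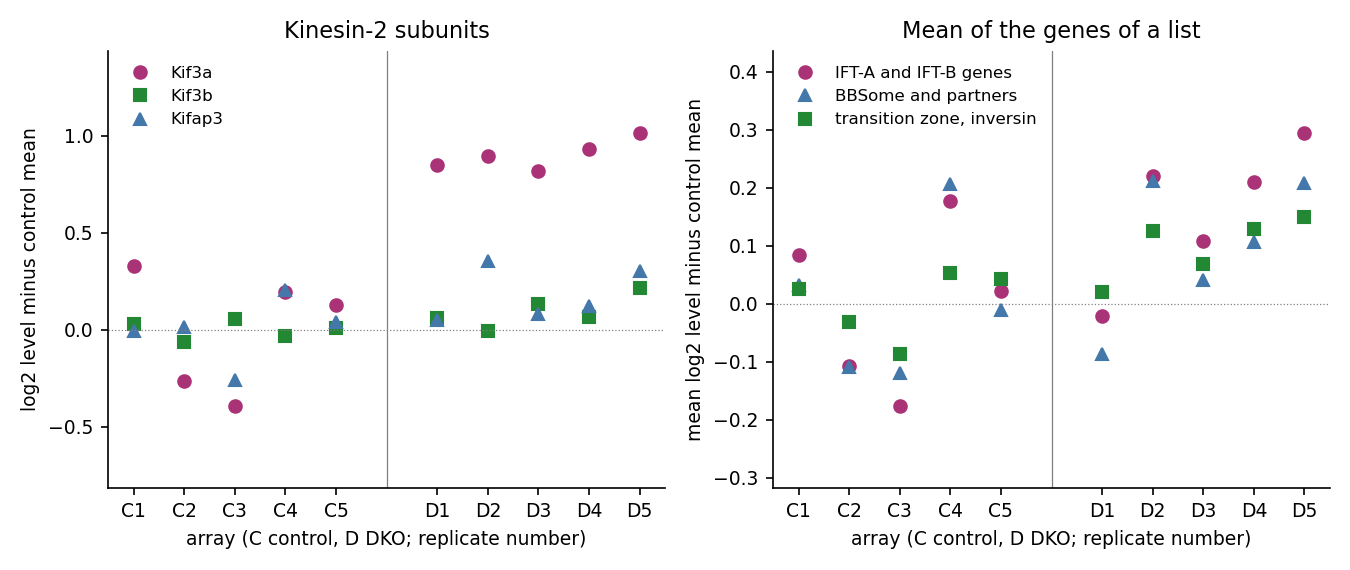
Left, log2 level of the kinesin-II subunits on each array minus the gene's control mean. Right, the mean log2 level of the IFT lists (without Ift88), the list of the BBSome and its partners and the transition zone list on each array minus the list's control mean. Kif3a on the DKO arrays lies above every control array, whereas the list means of the groups overlap and are lowest in control replicate 3.

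Among the other motor genes none of 6 passed, and the median change was 0.06. Dync2li1, the light intermediate chain of the dynein-2 return motor, was 7.51 ± 0.21 in control and 7.92 ± 0.10 in DKO (SD, n = 5 each). The difference of 0.41 ± 0.10 (SE) just missed the threshold (adjusted p = 0.0545), with no overlap of the groups. Dync2h1, the heavy chain of the same motor, differed by -0.004 ± 0.063 (SE, adjusted p = 0.981). The BBSome is the coat complex that carries membrane proteins out of the cilium. The list of its subunits and partner proteins had a median change of 0.11 with none of 11 past the test. With control replicates 2 and 3 both left out that median was 0.01. Bbs1 was 0.10 (adjusted p = 0.389) and Bbs5 was 0.14 higher (adjusted p = 0.399). Genes of the transition zone, the gate at the cilium base, and of the inversin compartment above it had a median change of 0.11, with none of 22 past the test, and a median of 0.05 without those 2 control arrays. Tmem231 was 0.19 ± 0.06 (SE) higher (adjusted p = 0.147) and Rpgrip1l 0.42 ± 0.16 higher (adjusted p = 0.241).

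In the list of GTPases and lipid-modified protein traffic, where Arl13b has its place, none of 12 passed. The median change was 0.08, or 0.02 without control replicates 2 and 3. With array medians subtracted it was 0.04, where the median of all genes moved down as well, from -0.006 to -0.047. Rabl2 was 0.39 ± 0.11 (SE) higher (adjusted p = 0.0900) and Rp2, a GTPase-activating protein for Arl3, was 0.28 ± 0.11 higher (adjusted p = 0.272). Genes of cilium assembly and disassembly, which include the kinase genes Ttbk2 (0.13, adjusted p = 0.323) and Aurka, had a median of -0.005 with none of 11 past the test. Ofd1, a centriolar satellite protein, was 0.17 higher (adjusted p = 0.373).

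Of 17 other cystic disease genes 1 rose, and the list's median change was -0.02. Glis2, a zinc finger factor related to Glis3 and mutated in nephronophthisis, read 10.25, 10.55, 10.34, 10.30 and 10.44 on control arrays 1 to 5 and 11.07, 10.57, 10.96, 10.63 and 10.87 on DKO arrays 1 to 5. All DKO arrays lay above all control arrays. The log2 change was 0.44 ± 0.10 (SE, adjusted p = 0.0452), a call that ended on leaving out any 1 array other than DKO replicates 2 or 4 (highest adjusted p 0.116, without control replicate 3). Dzip1l, a transition zone gene of recessive polycystic kidney disease, was 0.27 ± 0.06 (SE) higher and just missed the threshold (adjusted p = 0.0530). Prkcsh (0.10, adjusted p = 0.460) and Sec63 (-0.02, adjusted p = 0.891), genes of polycystic liver disease that act in the endoplasmic reticulum, did not pass.

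The list of cilium transcription factors had none of 9 past the test and a median of 0.006. Foxj1, the master factor of motile cilia, was 0.12 ± 0.05 (SE) higher (adjusted p = 0.349). Rfx4 read 5.40 in control and 5.32 in DKO, inside the 3.99 to 5.75 that sex-linked genes read where they are off. Its log2 change of -0.08 ± 0.06 (SE, adjusted p = 0.588) was thus measured near background. Of 15 Hedgehog genes, whose vertebrate pathway runs through the primary cilium, none passed and the median was 0.06. That median was 0.009 without DKO replicate 3, 0.01 without control replicate 4 and -0.01 without control replicates 2 and 3. Of the 15, 9 had an estimate above 0. Smo, the transducer that enters the cilium, was 0.15 ± 0.06 (SE) higher (adjusted p = 0.258), and Cdon, a Hedgehog co-receptor, 0.37 ± 0.19 higher (adjusted p = 0.394). Gli1 and Ptch1, targets of the pathway, were 0.09 ± 0.11 and 0.06 ± 0.05 higher (adjusted p = 0.71 and 0.641). Hhip went the other way (-0.22 ± 0.35 SE, adjusted p = 0.798), as did Ihh (-0.14, adjusted p = 0.476), Shh (-0.12, adjusted p = 0.654) and Dhh (-0.07, adjusted p = 0.622).

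Genes of motile cilia were also described, though duct and islet cells carry non-motile ones. The mean level of the list was low, 6.18 to 6.26 over control and 6.11 to 6.30 over DKO arrays. All genes tested had means of 7.47 to 7.50 and 7.48 to 7.52. The filter on the dimmest 50% of genes left none of the list. A median near 0 at such levels is thus no contrast to the other lists. Of 15 such genes 1 rose, the dynein heavy chain gene Dnah11 (log2 change 0.24 ± 0.05 SE, limma adjusted p = 0.0492), and the list's median was -0.02. Dnah11 read 6.14 to 6.31 in control and 6.37 to 6.55 in DKO, and its call ended without any 1 of the 10 arrays (adjusted p of 0.0504 to 0.123).

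Of 14 measured duct markers 5 rose in DKO and none fell, where 2.08% of all genes rose and 0.366% fell. The mean level of the 14 was 9.63 to 9.82 over control and 9.94 to 10.17 over DKO arrays, with no overlap. The 5 that rose were Cldn4 (1.37), Krt7 (1.22), Tspan8 (0.96), Krt19 (0.41) and Krt8 (0.30), tight junction, keratin and surface genes of duct epithelium. Krt8 lost its call in 13 of 22 alternatives and Tspan8 in 9 of 21. Sox9, the factor that maintains duct identity, was lower on every DKO array (10.16 to 10.59) than on any control array (10.67 to 10.83) and did not pass (-0.26 ± 0.08 SE, adjusted p = 0.149), and Car2 (-0.34, adjusted p = 0.760), Onecut1 (-0.10, adjusted p = 0.632) and Muc1 (-0.03, adjusted p = 0.817) also had lower means in DKO. Cdh16, a cadherin of kidney tubule and other epithelia, rose by 0.69 ± 0.08 (SE, adjusted p = 0.00133), the only call among 8 kidney tubule markers. Of 14 islet markers none passed, and 1 had an estimate above 0, against 47.6% of all genes. At an unadjusted p of 0.05 there were 4, all lower in DKO, where 14.8% of all genes passed in either direction. The islet mean level was 9.9518 to 10.17 over control and 9.80 to 9.9512 over DKO arrays, with no overlap. Of 10 acinar markers 1, Rbpjl, fell (-0.45, adjusted p = 0.0225), where 0.366% of all genes did. The acinar mean level was 12.23 to 12.40 over control and 11.71 to 12.21 over DKO arrays, with no overlap. None of the 10 acinar markers had an estimate above 0. None of the stellate and fibroblast, endothelial, immune, hepatocyte, fat and cell cycle markers passed. The part of these shifts in the Kif3a and Pkhd1 increases was not tested. Without DKO replicate 1, the array high in hepatocyte markers, Kif3a was 0.92 higher (adjusted p = 0.0102) and Pkhd1 0.40 higher (adjusted p = 0.0918).

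Of the classic YAP and TAZ target list 5 of 9 measured genes rose in the same comparison, where 2.08% of all genes did. The 5 were Ankrd1 (1.51), Ccn1 (1.43), Ajuba (0.73), Amotl2 (0.65) and Lats2 (0.37). Of the 9, 7 had an estimate above 0, and the lowest change was -0.14. With control replicates 2 and 3 both left out, Amotl2 and Lats2 lost their calls (adjusted p = 0.0545 and 0.115).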

How the data were processed

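Total RNA of 10 mouse pancreas samples was measured on Affymetrix Mouse Gene 1.0 ST arrays. Affymetrix Expression Console made the values, per the submitters' processing notes. Its version and settings, and thus the normalization, were not stated there or in the labels. The authors' deposited values are log2 levels per transcript cluster, 35556 in all, already on a common scale and used without further normalization. Clusters with 1 gene symbol (21789) were kept, symbols were updated through a GRCm38.p6 RefSeq gene table, and the brightest cluster over all arrays stood for each of 19938 genes. The groups were compared in R 4.3.3 by limma 3.58.1 (linear model with empirical Bayes variance, two-sided, Benjamini-Hochberg over all genes, threshold 0.05), after a check on simulated data. An adjusted p quoted for a gene comes from that fit unless its sentence names another setting, and standard errors of changes have 10.96 degrees of freedom, and the 5 arrays per group limit the precision. Array values hold no read depth.

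The members and lists were chosen with earlier results of these data known. Named are all members, per list up to 6 genes past the threshold or otherwise the 2 with the smallest p, and the 3 genes most like each of the 3 members with the smallest p. Kif3b, Dync2h1, Dzip1l, Sox9, Car2, Onecut1, Muc1, Aurka, Prkcsh, Sec63, Gli1, Ptch1, Hhip, Ihh, Shh and Dhh were named after their values were seen. Alternatives were quantile normalization again, array medians subtracted, 2 filters on dim genes, trended and robust or unmoderated variance, array weights, 2 treatments of several clusters, a replicate block, the Xist level as a covariate and leaving out each array. Leaving out control replicates 2 and 3 together was added after seeing the data.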

Additional observations from a re-analysis of the deposited data

Results flagged for a closer look

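In 9 of 150 groups of 5 arrays examined, for the members, the named genes and the means of the gene and marker lists, 1 array stood apart from the other 4, where chance gives about 1 in 20. Glis3 in control replicate 4 (9.32) lay below the other control arrays (9.59 to 9.63). Ift122 in control replicate 3 (7.36) lay below the others (7.68 to 7.78), as did Foxj1 in control replicate 1 (6.31, others 6.39 to 6.42). Cdon was high in control replicate 1 (6.72, others 6.24 to 6.34) and in DKO replicate 5 (7.50, others 6.43 to 6.74). In DKO replicate 1 the islet factor gene Nkx2-2 was low (8.42, others 8.78 to 8.84) and the hepatocyte gene Apob high (9.85, others 5.51 to 6.15). On that array the mean of the hepatocyte markers was high as well (11.08, others 6.54 to 7.36), and that of the stellate and fibroblast markers was low (10.56, others 10.66 to 10.69).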

How the results depend on the processing

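Kif3a kept its call in all 21 alternatives in which it was tested (changes 0.69 to 0.99, adjusted p 0.00273 to 0.0277), and was removed as a dim gene by the 50% filter. The 4 within-array differences kept their direction in the settings run for them. Pkhd1 changed by 0.38 after quantile normalization, 0.36 with medians subtracted, 0.40 with unmoderated variance or the replicate block, 0.39 with the Xist covariate and 0.33 without control replicates 2 and 3 (adjusted p = 0.316), none past the threshold, and by 0.36 to 0.47 without 1 array. Glis3 passed at 0.48 with either dim-gene filter or trended and robust variance and at 0.46 with array weights, and ranged from 0.41 to 0.58 without 1 array. Dcdc2a ranged from 0.14 to 0.26 without 1 array. The members called higher numbered 1 in place of 2 under quantile normalization, medians subtracted, unmoderated variance, the replicate block, the Xist covariate and without control replicates 2 and 3, 3 (Glis3 added) without the dimmest 25% of genes, with trended and robust variance or with array weights, and 1 to 3 without 1 array. The genes of the 11 lists called higher (2) numbered 0 with medians subtracted, unmoderated variance, the replicate block, the Xist covariate or without control replicates 2 and 3, 1 with trended and robust variance or with every cluster tested by itself, 4 without the dimmest 25% of genes or with array weights, and 0 to 2 without 1 array. Over all genes, calls fell from 487 (414 higher, 73 lower) to 298 (264, 34) with unmoderated variance, 178 (162, 16) with the replicate block and 116 (112, 4) without control replicates 2 and 3. Higher calls fell to 271 with medians subtracted, and lower calls to 46 with the Xist covariate. All calls rose to 532 and 555 without the dimmest 25% and 50% of genes, 514 with trended and robust variance and 536 with array weights. Without 1 array there were 260 to 433 calls, 232 to 372 of them higher and 28 to 64 lower, the fewest without control replicate 3. The causes of these shifts were not tested, though fewer arrays or degrees of freedom enter some of them. The marker gene Adipoq, far from its threshold, turned from -0.40 to 0.0774 without DKO replicate 3 and ranged from -0.83 to 0.0774 without 1 array. Same-numbered arrays of the 2 groups did not deviate together (r of -0.27, -0.20, 0.29, -0.22 and 0.21 across genes for numbers 1 to 5), so the titles' numbers are not taken as pairs; with the block the Kif3a call held (adjusted p = 0.0223).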
